A study of Mus musculus with 2 samples.

Results

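The Mir106b-25 and Mir106a-363 clusters are the 2 paralogs of the Mir17-92 cluster in the mouse genome. Their 9 miRNA genes were taken by name from 2202 annotated miRNA genes: Mir106b, Mir93 and Mir25 on chromosome 5, and Mir106a, Mir18b, Mir20b, Mir19b-2, Mir92-2 and Mir363 on chromosome X. They were measured by microRNA sequencing in myotubes that had differentiated for 72 h from C2C12 cells, a myoblast line established from the crush-injured thigh muscle of C3H mice. The series holds 1 group of 2 libraries, biological replicates 1 and 2, from separate biosamples of this 1 line, with no treatment and no undifferentiated control in the labels. Levels were therefore compared between genes and between the libraries, and the spread between replicates is that of cultures of 1 line.

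A microRNA is cut from a hairpin in a longer transcript, and its mature arm guides silencing of messenger RNAs that pair with its seed, bases 2 to 8 from the 5′ end. Paralogous clusters carry hairpins with the same seeds, so their products can act on overlapping sets of targets. The Mir17-92 cluster and its paralogs are known for promoting proliferation and survival, with the cell-cycle inhibitor Cdkn1a and the pro-apoptotic Bcl2l11 among their described targets. Mcm7, the host of Mir106b-25, encodes a subunit of the replicative DNA helicase and is transcribed in cycling cells, whereas myotubes have left the cell cycle.

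All 9 genes matched an entry of the RefSeq sequence table (GRCm38.p6), and their seeds fell into 4 families. The mature arms that give the families their names are shown 5′ to 3′, with the seed in capitals, because members are read below by the seed they share. The miR-17 seed is carried by 4 members, 2 in each cluster.
miR-106b-5p: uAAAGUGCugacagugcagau
miR-93-5p: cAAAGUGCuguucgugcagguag
miR-106a-5p: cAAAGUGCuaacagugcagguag
miR-20b-5p: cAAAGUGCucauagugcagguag
The miR-92 seed is carried by 3 members, 1 of them in the Mcm7 cluster.
miR-25-3p: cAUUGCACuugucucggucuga
miR-92a-3p: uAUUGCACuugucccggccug
miR-363-3p: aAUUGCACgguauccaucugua
The miR-18 and miR-19 seeds have 1 member each, both on chromosome X.
miR-18b-5p: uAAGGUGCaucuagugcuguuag
miR-19b-3p: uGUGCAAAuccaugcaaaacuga

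Mature miR-19b-3p is made identically by Mir19b-2 and Mir19b-1, and mature miR-92a-3p by Mir92-2 and Mir92-1, where the other gene of each pair lies in the Mir17-92 cluster. The hairpins share exact runs of 25 bases (Mir19b-2 with Mir19b-1) and 22 bases (Mir92-2 with Mir92-1). The tables count reads that mapped to several places in a line of their own, so the counts of these 4 genes leave out any such read and are uncertain. The other 7 members shared no run longer than 17 bases with any annotated miRNA hairpin. Some still differ from a Mir17-92 miRNA by few bases. Counted from 1 at the 5′ end, miR-106a-5p differs from miR-17-5p by U10A alone, and miR-20b-5p differs from it by U10C and C12U. miR-93-5p differs from miR-17-5p by U10G, A11U, C12U and A13C. miR-18b-5p differs from miR-18a-5p by A18U and A20U. How the aligner treated mismatches is not given in the sources used here.

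On the mm10 assembly the Mir106b-25 hairpins lie on the minus strand of chromosome 5 within 498 bases: Mir106b (ENSMUSG00000065514.1) at chr5:138165737-138165818, Mir93 (ENSMUSG00000065527.1) at chr5:138165523-138165610 and Mir25 (ENSMUSG00000065394.1) at chr5:138165321-138165404. All 3 fall in intron 13 of the principal Mcm7 transcript, on the strand of Mcm7, and Mir93 and Mir25 also fall in an exon of an annotated retained-intron transcript of Mcm7. The Mir106a-363 hairpins lie on the minus strand of chromosome X within 875 bases, from Mir106a (ENSMUSG00000065456.1, chrX:52742503-52742567) through Mir18b, Mir20b, Mir19b-2 and Mir92-2 to Mir363 (ENSMUSG00000070106.1, chrX:52741693-52741767). Mir106a overlaps the noncoding gene Kis2 by up to 5 exonic bases, and the other 5 hairpins overlap no annotated gene other than a miRNA gene. Gaps between neighbouring hairpins are 118 and 126 bases in the Mcm7 cluster and 46 to 138 bases in the X-linked cluster. The expressed Mir93 and its unread X-linked relative Mir20b, which share the miR-17 seed, have the following hairpins, with both annotated mature arms in capitals.
Mir93: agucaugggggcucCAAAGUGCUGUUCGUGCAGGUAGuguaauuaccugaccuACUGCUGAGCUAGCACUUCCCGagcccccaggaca
Mir20b: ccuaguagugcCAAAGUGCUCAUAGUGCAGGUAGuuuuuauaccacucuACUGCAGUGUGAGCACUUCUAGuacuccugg
The tables give 1 count per gene, so reads of the 5p and 3p arms of a hairpin cannot be told apart.

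Replicate 1 held 7581366 reads on the sense strand of miRNA genes and replicate 2 held 9865298, and levels are given in counts-per-million (CPM) of these totals. Reads that mapped to several places were 22.0% and 17.9% of all reads. The 8 skeletal muscle markers took 35.5% and 42.8% of miRNA reads in replicates 1 and 2. Mir206 was the most abundant of all genes, at 378817 ± 53707 CPM (SD, n = 2), and gave most of these reads. Of the 8 markers, 5 reached 2 CPM in both libraries. Mir1a-1, Mir1a-2, Mir133a-1 and Mir133a-2 had low counts, with means of 2.94, 3.02, 2.01 and 1.03 CPM. These genes are numbered copies, and any read placed at more than a single site is missing from their values. Their levels may therefore be too low, and the share of the muscle markers is uncertain. Summed fibroblast and smooth muscle markers stood at 132976 and 70065 CPM, or 13.3% and 7.01% of miRNA reads. Endothelial markers stood at 219 and 44.5 CPM and blood markers at 105 and 183 CPM. The embryonic stem cell list had 6 and 4 reads and the neuronal list, made of numbered copies, 0 and 1 reads. Reads that mapped to several places are left out here too, so these counts do not show that the miRNAs were absent. Intervals below are 95% exact intervals, which cover counting error of reads only, since the labels mention no molecular identifiers.

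The cluster in Mcm7 was read abundantly in these myotubes, and the cluster on chromosome X was almost unread. The 3 genes of Mir106b-25 gave 36930 reads in replicate 1 and 35197 in replicate 2, and the 6 genes of Mir106a-363 gave 68 and 83. That is 4219 ± 922 CPM against 8.69 ± 0.393 CPM (SD, n = 2). Within a library the Mcm7 cluster exceeded the X-linked cluster 543-fold in replicate 1 (interval 428 to 699.5) and 424-fold in replicate 2 (342 to 533), or by 8.90 ± 0.25 on the log2 scale (SD, n = 2). The size of this ratio depends on the 2 X-linked genes of uncertain count: without Mir19b-2 and Mir92-2 the log2 ratio was 11.14. No ratio was tested: with 2 libraries the smallest p of an exact paired permutation test (two-sided) is 0.5.

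**Figure D1:**
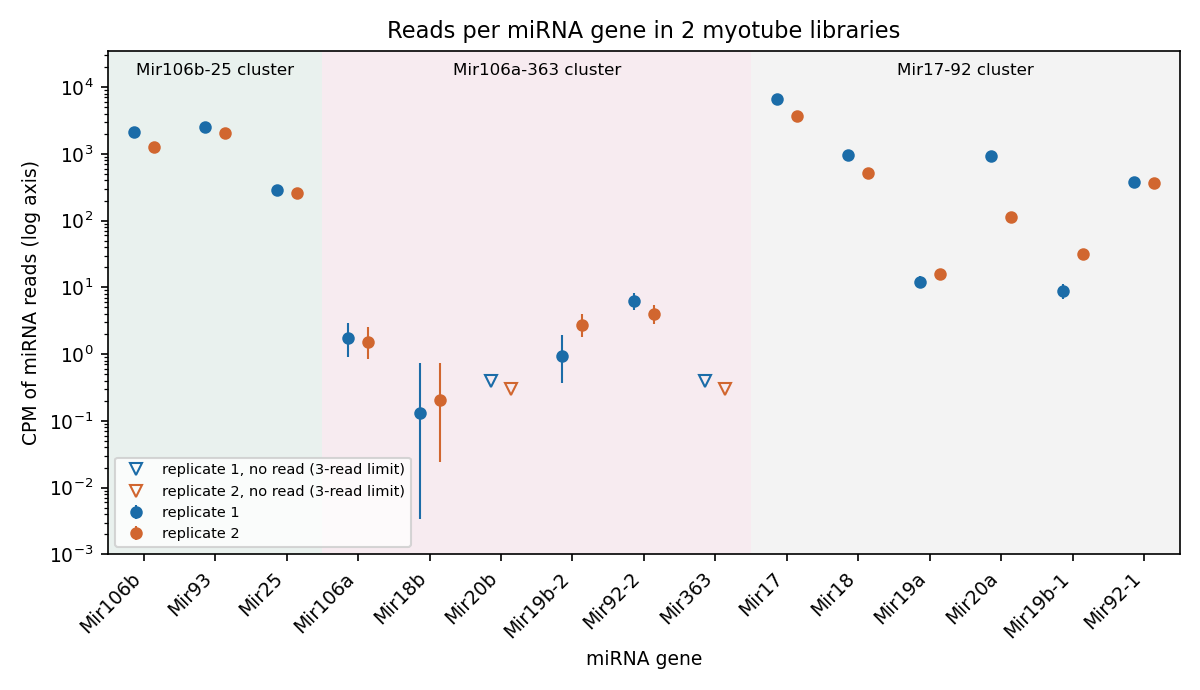
CPM of miRNA reads (log axis) of the 9 genes of both clusters and the 6 genes of the Mir17-92 cluster in replicates 1 and 2, with 95% exact Poisson intervals as bars; open triangles mark genes with no read, drawn at the CPM of 3 reads. Mir106b, Mir93 and Mir25 lie between 260.1 and 2480.2 CPM and no X-linked gene exceeds 6.20 CPM.

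Of the 9 genes, 4 reached 2 CPM in both libraries, against 12.4% of all 2202 miRNA genes. They were the 3 genes of the Mcm7 cluster and Mir92-2. A read in either library was found for 7 of the 9, against 32.2% of all miRNA genes, and Mir20b and Mir363 had none. In replicate 2 alone Mir19b-2 also passed.

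Mir93, a miR-17 seed member, was the most abundant of the 9. It gave 18803 reads (2480.2 CPM) in replicate 1 and 19952 reads (2022 CPM) in replicate 2, ranked 37 and 34 among miRNA genes, and averaged 2251 ± 324 CPM (SD, n = 2). Mir106b, the second carrier of this seed in Mcm7 and the first hairpin along the transcript, gave 15955 reads (2104.5 CPM) and 12679 reads (1285 CPM), or 1695 ± 579 CPM. Mir93 was above Mir106b within each library, by a log2 ratio of 0.45 ± 0.29 (SD, n = 2), while the CPM values of these genes overlapped across libraries. Mir25, which carries the miR-92 seed and lies last in the transcript, gave 2172 reads (286 CPM) and 2566 reads (260.1 CPM), or 273 ± 18.7 CPM. It was below Mir93 and Mir106b in both libraries, beyond the replicate spread.

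The 3 hairpins of the Mcm7 intron thus contributed unequally to the cluster's reads. Mir93 made up 50.9% of them in replicate 1 and 56.7% in replicate 2, Mir106b 43.2% and 36.02%, and Mir25 5.88% and 7.29%. Mir93 exceeded Mir25 8.66-fold in replicate 1 (interval 8.28 to 9.05) and 7.78-fold in replicate 2 (7.46 to 8.10), a log2 ratio of 3.04 ± 0.11 (SD, n = 2). The ratio of Mir106b to Mir25 was less even, at 7.35 (7.02 to 7.69) and 4.94 (4.74 to 5.16). Mir93 to Mir106b stood at 1.18 (1.15 to 1.20) in replicate 1 and 1.57 (1.54 to 1.61) in replicate 2. For each of the 3 ratios, that of Mir93 to Mir25 included, the counting intervals did not overlap between libraries. Whether the 3 hairpins are captured with equal efficiency was not tested, and the values compare reads and not molecules.

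On chromosome X, Mir92-2 had the most reads, and these came from a gene whose count is uncertain. It gave 47 reads (6.20 CPM, interval 4.56 to 8.24) in replicate 1 and 39 reads (3.95 CPM, 2.81 to 5.40) in replicate 2. Mir19b-2, the carrier of the miR-19 seed and also of uncertain count, gave 7 reads (0.923 CPM, 0.371 to 1.90) and 27 reads (2.74 CPM, 1.80 to 3.98). Together these 2 genes held 54 of the cluster's 68 reads in replicate 1 and 66 of 83 in replicate 2.

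Mir106a, the X-linked gene most like Mir17, gave 13 reads (1.71 CPM, interval 0.913 to 2.93) and 15 reads (1.52 CPM, 0.851 to 2.51). Mir18b, of the miR-18 family, had 1 and 2 reads. Mir20b, of the miR-17 family, and Mir363, of the miR-92 family, had 0 reads, and a count of 0 leaves room for a level of 0.396 CPM in the first library and 0.304 CPM in the second. In falling order of mean level the X-linked genes were Mir92-2, Mir19b-2, Mir106a, Mir18b and then Mir20b and Mir363 at 0. Mir92-2 lay above Mir19b-2 in both libraries, with no overlap of their values, although their counting intervals overlapped in replicate 2. Mir19b-2 was below Mir106a in replicate 1 and above it in replicate 2, so their order was not resolved. Mir106a exceeded Mir18b in both libraries, at 13 reads to 1 (the ratio of Mir18b to Mir106a was 0.0769, interval 0.00181 to 0.512) and 15 to 2 (0.133, 0.0148 to 0.573).

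**Figure D2:**
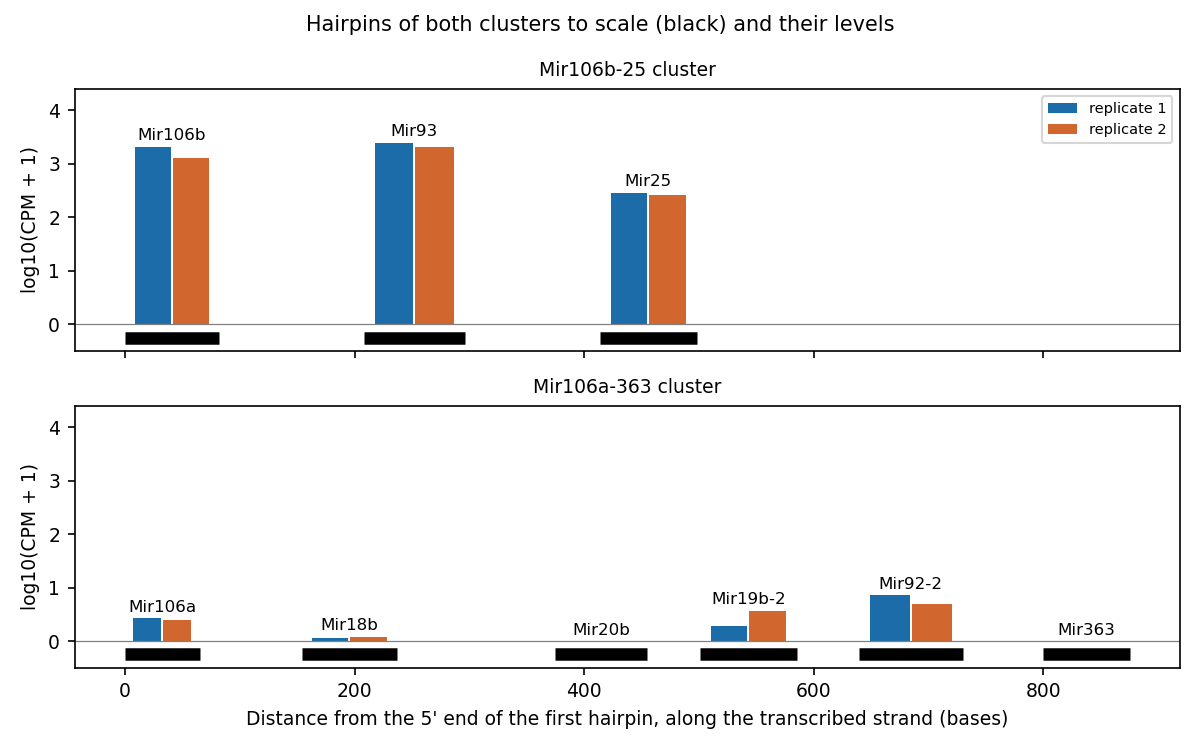
Hairpins of the Mcm7 cluster (top) and the X-linked cluster (bottom) drawn to scale in black along the transcribed strand, with distance in bases from the 5′ end of the first hairpin, and bars of log10(CPM + 1) for replicates 1 and 2. In the Mcm7 cluster the first 2 hairpins are high and the last, Mir25, is lower; in the X-linked cluster the highest bars belong to Mir92-2, and Mir20b and Mir363 have none.

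Low counts on this stretch of chromosome X were not shared by the nearest miRNA cluster. Of 9 other miRNA genes within 500 kb of Mir106a-363, 7 (77.8%) reached 2 CPM in both libraries, against 12.4% of all miRNA genes. All 7 lay in the Mir322-Mir503 group between 305 and 312 kb away, so they describe that group and not the whole stretch. These included Mir322, a miRNA linked to myoblast differentiation, at 27578 and 13017 CPM. Over chromosome X as a whole, 28 of 136 miRNA genes outside the cluster (20.6%) were detected. This window was chosen after the counts had been seen.

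The next comparison set the paralogous members side by side by seed. In the miR-17 family, Mir106b exceeded Mir106a 1227-fold in replicate 1 (interval 718 to 2306) and 845-fold in replicate 2 (512 to 1511). Mir93 was at least 6268-fold higher than Mir20b in replicate 1 and at least 6651-fold higher in replicate 2, taking 3 reads per library as the limit for Mir20b. In the miR-92 family, Mir25 was at least 724-fold higher than Mir363 in replicate 1 and at least 855-fold higher in replicate 2 by the same limit, and exceeded Mir92-2 46.2-fold (34.6 to 63.1) and 65.8-fold (48.0 to 92.7). By counted reads, every pairing of a Mcm7 gene with its X-linked counterpart in this set of 4 thus had the Mcm7 gene higher in both libraries. The pairing of Mir25 with Mir92-2 rests on an uncertain count. Reads of Mir92-2 that mapped to several places are left out, so these folds may be too high, which the intervals do not cover.

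Against the Mir17-92 cluster on chromosome 14, which carries the same seeds, Mir106b-25 was lower in both libraries. Mir17-92 gave 8922 CPM in replicate 1 and 4702 CPM in replicate 2, so the Mcm7 cluster stood at 0.546 (interval 0.539 to 0.553) and 0.759 (0.748 to 0.769) of it. The Mir17-92 sum includes Mir19b-1 and Mir92-1, whose reads that mapped to several places are left out. These cluster ratios may therefore be too high, which the intervals do not cover. Mir93 was below Mir17 in both libraries, at 0.374 (0.368 to 0.381) and 0.554 (0.544 to 0.564) of its reads, and Mir106b was at 0.318 (0.312 to 0.323) and 0.352 (0.345 to 0.359). Relative to Mir20a, Mir93 was 2.69-fold higher (2.61 to 2.76) and 17.8-fold higher (16.7 to 18.9). Mir20a itself stood at 923 CPM in replicate 1 and 114 CPM in replicate 2, while Mir93 varied less. Mir25 was at 0.750 (0.709 to 0.793) and 0.705 (0.670 to 0.742) of Mir92-1, the most even of these ratios with an SD of 0.06 on the log2 scale (n = 2), although the count of Mir92-1 is uncertain.

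Each X-linked gene was below its Mir17-92 relative in both libraries. Mir17 exceeded Mir106a, whose mature arm differs by a single base, 3863-fold in replicate 1 and 2402-fold in replicate 2. How mismatches were treated is not given, and whether reads of Mir17 entered the small count of Mir106a was not tested. Mir20a was at least 2332-fold higher than Mir20b in replicate 1 and at least 374-fold higher in replicate 2. The ratio of Mir18b to Mir18 was 0.000136 (interval 3.43e-06 to 0.000756) and 0.00039 (4.72e-05 to 0.00141). Mir19b-1 exceeded Mir19b-2 9.43-fold and 11.5-fold and Mir92-1 exceeded Mir92-2 61.6-fold and 93.3-fold, and all 4 genes of these pairs are uncertain in count.

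Genes were summed by seed family, with reads of either arm counted, since the arms cannot be told apart. The Mcm7 cluster supplied 37.8% to 46.8% of the reads of 2 families. The X-linked cluster supplied under 1% of the counted reads of the miR-17, miR-18 and miR-92 families. Its share of the few counted reads of the miR-19 family was larger. Of the miR-17 family's 91985 reads in replicate 1 and 69794 in replicate 2, Mir93 and Mir106b gave 37.8% (interval 37.5% to 38.1%) and 46.8% (46.4% to 47.1%). Mir106a gave 0.0141% and 0.0215% of that family. Of the miR-92 family's 5479 and 6354 reads, Mir25 gave 39.6% (38.3% to 41.0%) and 40.4% (39.2% to 41.6%) and Mir92-2 gave 0.858% and 0.614%. Mir92-1 gave the most, 52.8% and 57.3%. Reads of Mir92-1 and Mir92-2 that mapped to several places are left out, so the shares of Mir25 may be too high and those of Mir92-2 are uncertain. Without these 2 uncertain genes the share of Mir25 was 90.7% on average, a value that leaves out the largest gene of the family. The remaining genes with this seed were lower than Mir25 in both libraries: Mir32 gave 43.1 and 6.79 CPM, Mir92b gave 5.01 and 4.46 CPM, and Mir367 had no read. Mir19b-2 gave 4.24% and 5.44% of the miR-19 family, which had 165 and 496 reads. Reads of Mir19b-1 and Mir19b-2 that mapped to several places are left out, so this family's total may be too low and its shares are uncertain. Mir18b gave 1 of 7378 and 2 of 5135 reads of the miR-18 family.

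**Figure D3:**
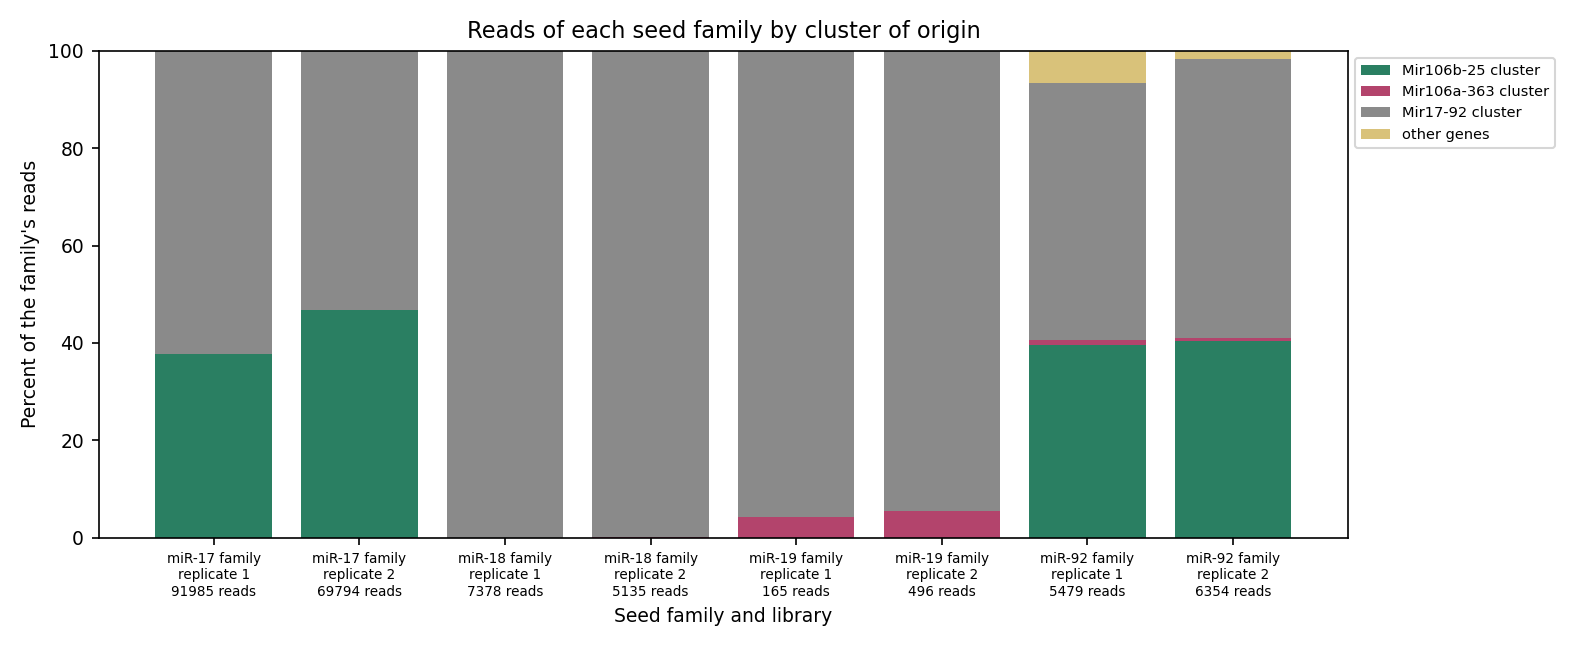
Percent of each seed family's reads (vertical axis, from 0 to 100) that came from the Mir106b-25, Mir106a-363 and Mir17-92 clusters and from other genes, with 1 bar per family and library and the family's reads below each bar. The Mcm7 cluster gives 37.8% to 46.8% of miR-17 family reads and 39.6% to 40.4% of miR-92 family reads, and none of the miR-18 and miR-19 families, whose seeds it lacks.

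Other miRNAs with a related start were counted by a rule on sequence. Of 19 genes whose mature arm holds, within its first 9 bases, the 6 bases at positions 3 to 8 of miR-17-5p, 15 were not members. Of these 15, 3 (20.0%) were detected in both libraries, against 12.4% of all miRNA genes, namely Mir17, Mir350 at 683 ± 205 CPM and Mir20a at 518 ± 572 CPM (SD, n = 2). Another 9 (60.0%), among them Mir290a, Mir302b, Mir302c and Mir302d of the embryonic stem cell clusters, had no read, against 67.8% of all miRNA genes.

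Genes at the level of the Mcm7 members in both libraries were named by their distance in log2(CPM + 0.5) over the 2 libraries, which describes levels only. The nearest to Mir93 were Mir210 (distance 0.29) and Mirlet7d (0.34). Mir30b (0.16) and Mir151 (0.23) were nearest to Mir106b, and Mir328 (0.16) and Mir125b-2 (0.20) to Mir25. No X-linked member had the 100 reads per library that this rule required.

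The last comparison was between the libraries, by an exact binomial test (two-sided) whose p-values were Benjamini-Hochberg adjusted over the 415 genes that had at least 10 reads. Of the 9 genes, 6 had enough reads to be tested and 4 differed by more than counting error, where 55.7% of all tested genes did. The 3 genes of the Mcm7 cluster were higher in replicate 1 (30.4% of tested genes) and Mir19b-2 was higher in replicate 2 (25.3% of tested genes). Given how many genes differ between these libraries, the members' share stands near the background. The median difference of the 6 was 1.37-fold, against 1.53-fold over all tested genes. The test compares these libraries, not conditions.

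Mir106b differed most within its cluster, with replicate 2 at 0.624 of replicate 1 (interval 0.609 to 0.638) after scaling by trimmed mean of M values (TMM) and a p below the range of the software. Mir93 followed at 0.833 (0.816 to 0.85), with an adjusted p of 1.71e-71 in the exact binomial test. For Mir25 the ratio was 0.927 (0.875 to 0.982; exact binomial test, adjusted p = 0.019), and this call was lost with DESeq2 size factors (adjusted p = 0.0905). Markers of other cell types differed between the libraries in both directions by the same test. Of the 4 fibroblast and smooth muscle markers, Mir21a and Mir143 were higher in replicate 1 (log2 ratios of -1.03 and -0.88) and Mir145a and Mir214 were higher in replicate 2 (0.42 and 0.53). Of the 2 endothelial markers, Mir126a was higher in replicate 1 (-2.31) and Mir126b did not pass the test (-0.16). These genes were read in cultures of a single myoblast line, so their levels do not give a share of other cells. Whether their differences relate to those of the members was not tested.

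On chromosome X, Mir19b-2 was 3.03-fold higher in replicate 2 (interval 1.29 to 8.23; exact binomial test, adjusted p = 0.0109). Its identical-arm relative Mir19b-1 was 3.69-fold higher there too (2.82 to 4.88). Mir92-2 did not pass the test (ratio 0.651, interval 0.415 to 1.02; exact binomial test, adjusted p = 0.0845), nor did Mir106a (ratio 0.906, interval 0.402 to 2.07; exact binomial test, adjusted p = 0.905). The interval of Mir106a holds a 2-fold difference in either direction, which was not detectable at this depth. Mir18b, Mir20b and Mir363 had too few reads to be tested.

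**Figure D4:**
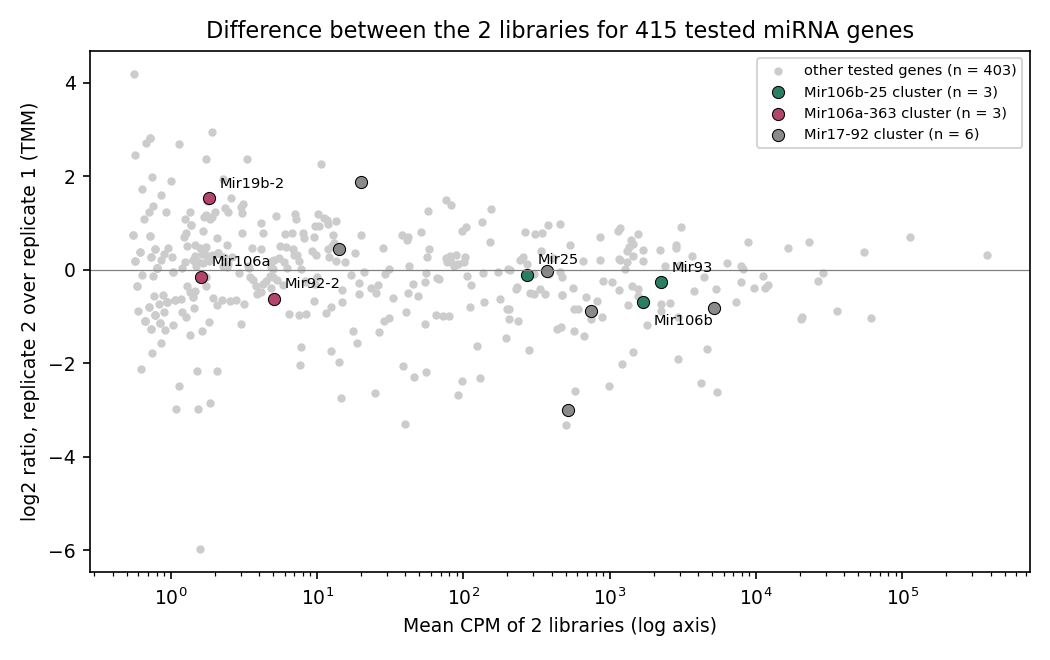
log2 ratio of replicate 2 over replicate 1 after TMM scaling against mean CPM (log axis) for the 415 tested miRNA genes, with the genes of the 3 clusters coloured and the tested members of both paralog clusters named. Mir93, Mir106b and Mir25 lie below 0, at -0.26, -0.68 and -0.11, and Mir19b-2 lies at 1.53 among genes of low count.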

How the data were processed

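MicroRNA-seq libraries of C2C12 myotubes were used as 1 group of 2 biological replicates, per the labels. The authors deposited raw read counts per miRNA gene, and the text files beside them name assembly mm10 and annotation M21. For the aligner, counter, trimming and filters: not given in the sources used here. The count column of the gene's own strand was used. Multimapping, unmapped (22.7% and 23.1% of all reads) and no-feature reads (5.88% and 5.57%) name no gene and were left out.

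Names and coordinates came from GENCODE M21 (GRCm38, which is mm10) and sequences from RefSeq. CPM, exact Poisson and Clopper-Pearson intervals and binomial tests were computed in Python 3.11.15 with scipy 1.17.1, and TMM and DESeq2 size factors with edgeR 4.0.16 and DESeq2 1.42.0 in R 4.3.3. With 1 group, edgeR's quasi-likelihood test has no contrast and was not used. A gene was called detected at 2 CPM in both libraries and tested at 10 reads in total, with a threshold of 0.05. Ratios on the log2 scale used a pseudocount of 0.5 reads; where a gene had no read, 3 reads per library were taken as its limit.

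On simulated Poisson counts with known changes the binomial test was checked. These counts held no spread beyond counting error. The check thus covers the calculation and not how the test behaves on replicates that differ by more. Named genes were the members, the Mir17-92 genes, the other miR-92 genes, the nearest genes in level and the 3 most abundant related genes. The members, lists and tests were chosen with earlier results of these data known. Genes within 500 kb were added after the counts had been seen.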

Additional observations from a re-analysis of the deposited data

Results flagged for a closer look

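A single group of 2 libraries allows no search for an outlying library or for groups that differ. Signal outside the counts used stood above the limit that 3 reads set. There were 3378438 multimapping reads in replicate 1 and 3295854 in the other library, and the tables do not say how many of them belong to Mir19b-2 or Mir92-2 and their copies. Reads outside miRNA genes numbered 903243 and 1027420. On the strand opposite the Mcm7 cluster there were 4 reads in replicate 1 and 0 in replicate 2.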

How the results depend on the processing

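Of 111 alternative values that did not leave out a library, 88 moved by less than the replicate SD or stayed within 1.5 times of a count. Without members of identical mature sequence the log2 ratio of the clusters was 11.14 in place of 8.90. The shares of miR-92 family reads were then 90.7% for the Mcm7 cluster and 0% for the X-linked cluster. Fewer genes enter these values, and the shares leave out Mir92-1, the gene with the most reads in its family. With all reads as the denominator, the Mir106b-25, Mir106a-363 and Mir17-92 clusters took 0.216%, 0.000446% and 0.346% of reads, and with strand ignored Mir106a-363 took 0.0009996%. Mir93 stood at 1153 CPM of all reads and at 3615 CPM of miRNA reads without Mir206. With 100 or more reads required, the number of members higher in replicate 2 was 0, since Mir19b-2 was not tested. The number of members that differ was 3 to 4 over all settings. Detection at 1 CPM gave 5 members and at 10 CPM gave 3. With a single library, 4 to 5 members were detected, the log2 ratio of the clusters was 8.72 to 9.07, and that of Mir19b-2 to Mir106a was -0.85 to 0.83, a change of sign in a ratio of 7 to 27 reads. Leaving out a library ends the test between libraries, which then gives no value. No paired analysis was possible because there is 1 group. Reads of Mir18b, Mir20b and Mir363 were too few at this depth for a comparison between libraries.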
